A study of Rattus norvegicus with 20 samples.

Results

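Mesenteric arteries of Wistar-Kyoto rats with 1-kidney, 1-clip (1K1C) renovascular surgery were compared with those of Wistar-Kyoto rats with 2-kidney, 1-clip (2K1C) surgery. The samples were chosen by their titles, which put 4 arrays in each group, 8 of the 20 arrays of the series. All 8 rats were of the normotensive strain WKY/Izm and were labelled as 6 weeks of age with 3 weeks of treatment. Whether that age applies at operation or at sampling is not clear from the labels. In both operations a renal artery is narrowed by a clip, and the groups differ in whether the other kidney was left in place (2K1C) or removed (1K1C). The series also holds 4 arrays of untreated WKY/Izm rats, used below as a reference level, and 4 arrays each of the inherited hypertensive strains SHR/Izm and SHRSP/Izm, which enter here only through the choice of probes and the shared estimate of spread. The rats of these groups were untreated and were also labelled as 6 weeks of age. Whether they match the operated rats in age at sampling is therefore not clear. No sham operation is among these groups, and no blood pressure was examined here. Total RNA came from the whole artery, so fewer cells of a type and less RNA per cell cannot be told apart. The titles call the arrays biological replicates, and nothing in the labels names litters or days.

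Narrowing a renal artery lowers the pressure in that kidney, which then releases renin, the enzyme that starts the production of angiotensin II. When the other kidney is present it can excrete sodium under the raised pressure, renin stays high, and the hypertension is classically described as dependent on angiotensin II. When the other kidney is removed, sodium and water are retained, renin falls back, and the hypertension is described as dependent on volume. The mesenteric artery is a resistance vessel bed with a smooth muscle media, an endothelium, sympathetic nerves and a sleeve of perivascular fat.

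Levels are given as log2 of the processed spot intensity minus the 75th percentile of the same array, so a difference of 1 is a doubling and negative levels lie below that percentile. The groups lay on different slides. The 2K1C arrays filled a row of slide 1, and the 1K1C arrays a row of slide 2 beside a row of the untreated arrays, so slide and operation cannot be told apart in this comparison. The 75th percentile was 726.4 to 772.4 on the 2K1C arrays and 574.5 to 931.5 on the 1K1C arrays. The net signal of the negative controls was 26.8 to 27.6 in 2K1C and 31.9 to 32.9 in 1K1C. Between 68.3% and 71.6% of spots lay well above background on each of the 8 arrays, and the number of arrays limits the precision.

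The artery samples did not sort cleanly by operation. Over the 16387 genes tested, correlations between arrays were 0.954 to 0.990 within 1K1C, 0.934 to 0.984 within 2K1C and 0.919 to 0.994 between the groups. The highest value between groups was that of 1K1C replicate 4 with 2K1C replicate 3, 0.994, above every correlation of 1K1C replicate 4 with its own group, 0.954 to 0.990. That array also correlated at 0.991 with untreated replicate 4. The lowest value was that of 1K1C replicate 2 with 2K1C replicate 1, 0.919. Results are therefore also given without 1K1C replicate 4 or without 2K1C replicate 3 where these change a call. Both arrays were picked from these data because they correlated most closely across the groups. Leaving either out tends to widen the differences, so calls made that way are no independent evidence of a difference. No label ties these arrays to each other. The group labels were kept as deposited, and whether samples had been exchanged was not tested.

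**Figure D1:**
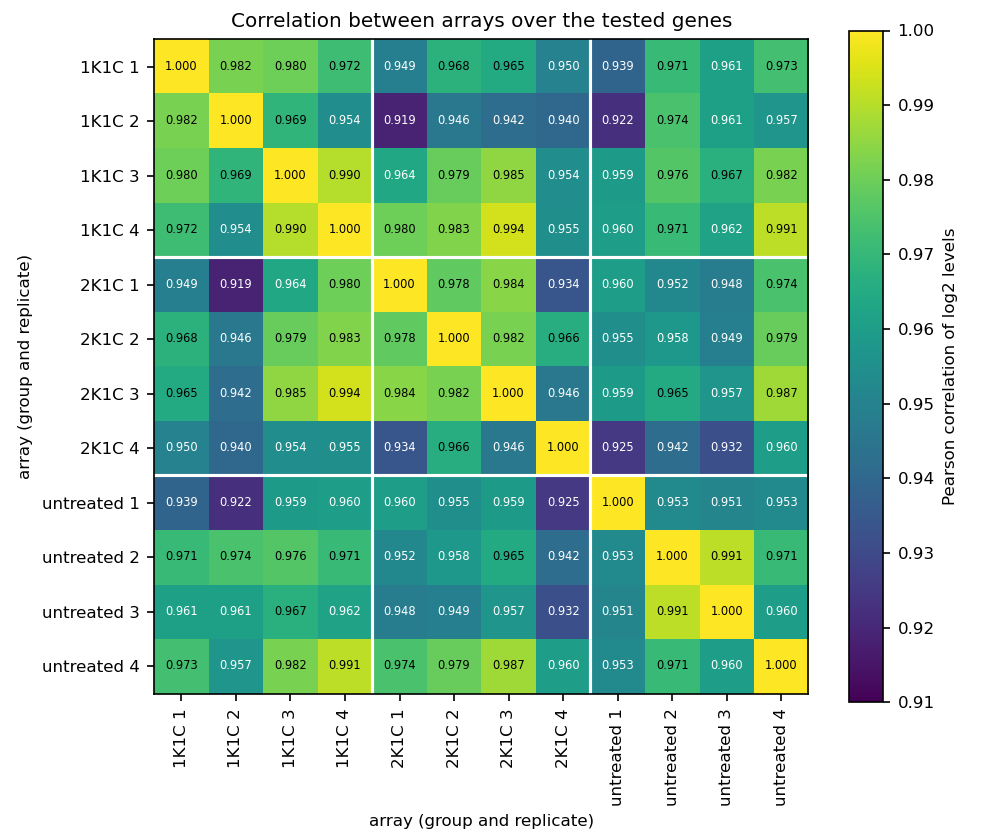
Pearson correlation of log2 levels over the 16387 tested genes between the 4 1K1C, 4 2K1C and 4 untreated arrays, with the value in each cell and white lines between groups. 1K1C replicate 4 is closer to 2K1C replicate 3 (0.994) than to any array of its own group (at most 0.990).

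No gene passed a Benjamini-Hochberg adjusted p of 0.05 in the comparison of 1K1C with 2K1C (limma, 0 of 16387 genes, 0%), and the lowest adjusted p was 0.0728, shared by 280 genes. At an unadjusted p under 0.05 the same fit had 3533 genes, of which 2589 were higher in 1K1C (15.8% of the genes tested) and 944 were lower (5.76%). For 1213 genes all 4 1K1C arrays lay above all 4 2K1C arrays (7.40%), and for 387 genes all lay below (2.36%). The median difference over all genes was 0.02, and 51.8% of genes had a positive difference. The share of the non-overlapping genes that were higher was 75.8%, and it was 86.1% with each array scaled to its median and 95.5% in the deposited values without scaling. In 84.3% of the 1213 genes, 1K1C replicate 4 was the 1K1C array closest to the 2K1C group, and in 64.4%, 2K1C replicate 3 was the 2K1C array closest to 1K1C.

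Leaving out a single array changed the number of calls. Without 1K1C replicate 4, 1901 genes passed the adjusted threshold in limma, 1668 higher (10.2%) and 233 lower (1.42%) in 1K1C. Without 2K1C replicate 3, 297 genes passed, 260 higher (1.59%) and 37 lower (0.226%), and 271 of these were also called without 1K1C replicate 4. Without 2K1C replicate 2 there was 1 call, Slc32a1, the vesicular transporter of GABA and glycine, and without 2K1C replicate 4 there was 1 unnamed transcript, both lower in 1K1C. These genes were named after their values were seen. Leaving out any of the other 4 arrays gave 0 calls, with 2062 to 3337 genes at an unadjusted p under 0.05. In the text that follows, no difference is called in the full set of arrays unless this is stated, and values describe these 8 arrays.

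The genes with the smallest p among those higher in 1K1C came from several processes. Aldh1a7, an aldehyde dehydrogenase, had levels of -1.44, -1.56, -2.56 and -3.17 in 1K1C and -5.31, -4.31, -4.27 and -4.49 in 2K1C, a difference of 2.41 ± 0.48 (SE, n = 4 and 4; limma adjusted p = 0.0728), or 5.31-fold. Spink5, an inhibitor of serine proteases, was at -0.44, -0.75, -1.19 and -1.71 against -3.42, -3.12, -2.59 and -2.97, a difference of 2.01 ± 0.41. In both, replicates 1 and 2 of 1K1C were the highest arrays and replicate 4 was the lowest of its group. Retn, which encodes the adipocyte hormone resistin, was at 5.81, 6.37, 5.77 and 5.59 in 1K1C and at 3.50, 4.32, 4.93 and 4.49 in 2K1C, a difference of 1.57 ± 0.34. Pcdh20, a protocadherin of cell adhesion, was at -3.54, -3.92, -3.39 and -3.71 against -4.59, -4.81, -4.46 and -4.88, a difference of 1.04 ± 0.19, and it had the smallest p of the leading genes. In rn4 coordinates, per the file headers, the probe of Pcdh20 lies at chr15:70761273-70761332. Cd302, a C-type lectin receptor of myeloid cells, was at 3.82, 4.12, 4.09 and 3.57 against 2.63, 2.91, 3.25 and 2.58, a difference of 1.06 ± 0.22.

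The other leading genes that were higher in 1K1C had differences of 0.73 to 1.29. They were Cables1 (1.29 ± 0.27), Smpd3, a neutral sphingomyelinase (1.16 ± 0.24), Pecr, a peroxisomal enoyl-CoA reductase (1.13 ± 0.24), Rmdn2 (1.08 ± 0.21), the aminopeptidase gene listed as Aqpep (0.98 ± 0.19), the co-chaperone Dnajc25 (0.80 ± 0.16) and Eif2b3, a subunit of the translation factor eIF2B (0.73 ± 0.15). A second detected probe of Smpd3, Eif2b3 and Cables1 gave 0.77, 0.71 and 1.31. None of these 12 genes overlapped between the groups, as the naming rule requires, and 1K1C replicate 4 was the closest array to 2K1C in 11 of them.

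Among genes lower in 1K1C, Slain1, a microtubule plus-end protein, had levels of -5.81, -6.57, -6.18 and -4.01 in 1K1C and -3.05, -3.72, -3.93 and -2.35 in 2K1C, a difference of -2.38 ± 0.57. It was well above background on 1 of 4 1K1C arrays and on all 4 2K1C arrays. Ier2, an immediate early gene, was at 1.84, 1.65, 1.48 and 1.46 in 1K1C and at 2.98, 1.95, 2.19 and 2.71 in 2K1C, a difference of -0.85 ± 0.20. The related Ier5 was at 1.05, 1.05, 1.05 and 1.50 against 2.24, 1.59, 1.64 and 2.30, a difference of -0.78 ± 0.19. Both early genes had 1K1C levels within a narrow span and 2K1C levels that were highest on replicates 1 and 4. Clcn3, a chloride and proton exchanger of vesicles, was at -0.85, -1.59, -0.93 and -0.35 against 0.08, -0.34, 0.21 and 0.59, a difference of -1.07 ± 0.26, and a second probe gave -0.68. Ptp4a3, a protein tyrosine phosphatase, was at -0.69, -1.37, -0.68 and -0.29 against 0.87, -0.03, 0.04 and 0.42, a difference of -1.08 ± 0.28.

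Adgrb1, an adhesion G protein-coupled receptor, was not well above background on any 1K1C array and was at least 1.77-fold higher in 2K1C. Its fitted difference was -1.01 ± 0.24. The remaining genes of this group were Inadl, a PDZ scaffold of cell junctions (-0.89 ± 0.23), Spacdr (-0.88 ± 0.22), the cytoskeletal septin Septin9 (-0.86 ± 0.22), Rpusd2 (-0.69 ± 0.17), the phosphatase Dusp18 (-0.58 ± 0.15) and Gabpb1, a subunit of a transcription factor for nuclear mitochondrial genes (-0.49 ± 0.12). All 24 leading genes had an adjusted p of 0.0728 in limma with all arrays. The adjusted p ran from 0.018 to 0.0327 without 1K1C replicate 4, where all 24 passed, and from 0.0454 to 0.0608 without 2K1C replicate 3, where 19 passed. In each of the other 6 sets with an array left out, 0 of the 24 passed, with adjusted p of 0.108 to 0.299.

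**Figure D2:**
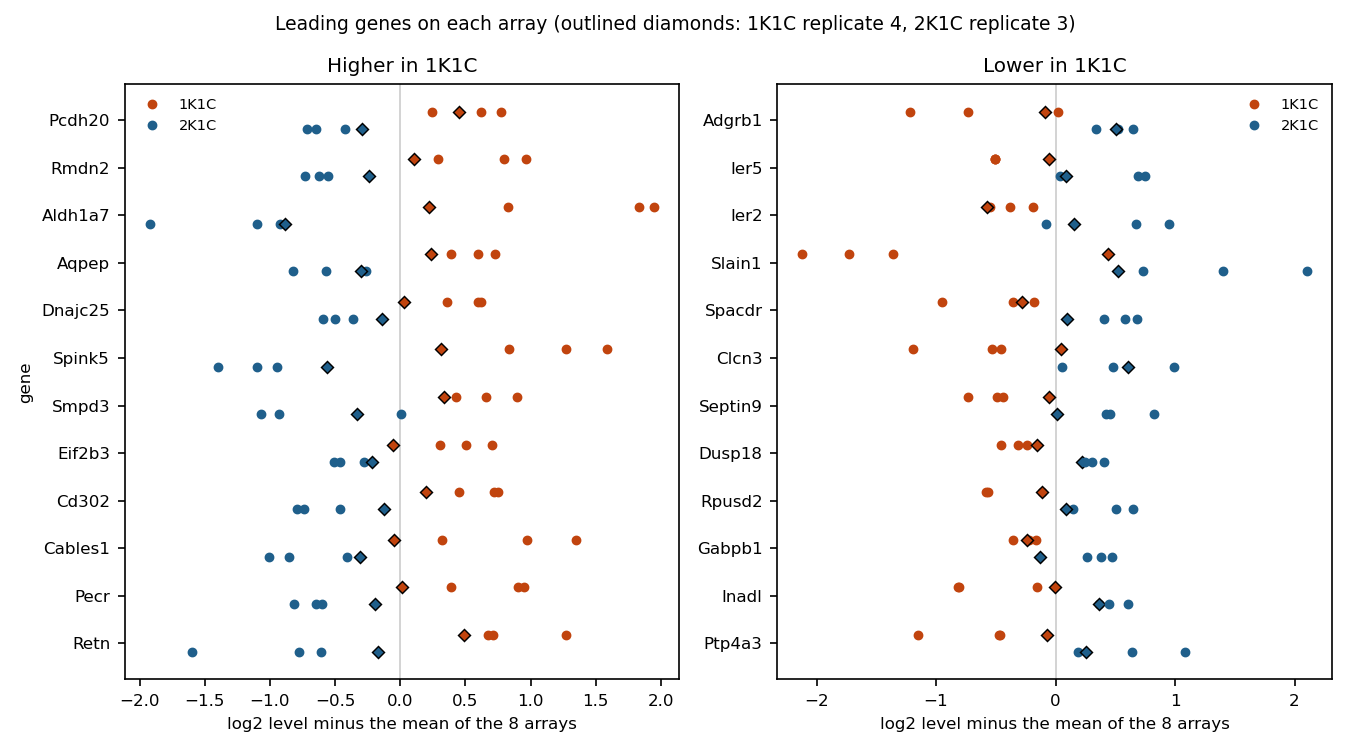
Log2 level of each of the 24 leading genes on the 4 1K1C arrays (red) and 4 2K1C arrays (blue), relative to the gene's mean over the 8 arrays. Outlined diamonds are 1K1C replicate 4 and 2K1C replicate 3. In 11 of the 12 genes on the left, 1K1C replicate 4 is the red point nearest to the blue ones.

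The 2 operations are classically set apart by renin and by sodium, so genes of both systems are given singly. In the renin-angiotensin system, 8 of 13 measured genes had a higher mean in 1K1C and 5 a lower one, with a median difference of 0.07, against 0.02 over all genes. In 4 of the 13 all 1K1C arrays lay above all 2K1C arrays, and 0 lay below, against 7.40% and 2.36% of all genes. Agt, which encodes angiotensinogen, the substrate of renin, was at 6.33, 6.61, 5.31 and 5.22 in 1K1C and at 4.23, 5.03, 4.71 and 4.64 in 2K1C, a difference of 1.22 ± 0.43 (limma adjusted p = 0.12).

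The angiotensin peptidases gave the largest differences of this system. Mme, which encodes neprilysin, was at 2.07, 2.52, 1.17 and 0.70 in 1K1C and at -0.59, -0.23, 0.34 and -0.07 in 2K1C, a difference of 1.75 ± 0.50 (limma adjusted p = 0.0759). Enpep, the aminopeptidase A that cleaves angiotensin II, was at 2.21, 2.36, 0.72 and 0.30 against -0.64, -0.22, -0.20 and -0.18, a difference of 1.70 ± 0.52. Replicates 1 and 2 of 1K1C stood highest in both of these, and replicates 3 and 4 lay nearer to the 2K1C arrays. Without 1K1C replicate 4 the adjusted p in limma was 0.0233 for both Mme and Enpep. They were among the 3 calls of this list, all higher in 1K1C, against 10.2% of all genes. Calls made without that array are no independent evidence of a difference. In Agt, Mme and Enpep the 1K1C arrays stood in the order of their white adipocyte means, given below. The 2K1C arrays did not, and the part of fat content in these differences was not tested.

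Ace, the angiotensin-converting enzyme of the endothelium, differed by -0.45 ± 0.30, and the chymase Cma1 of mast cells by 1.07 ± 0.63, with overlapping groups. The type 1 angiotensin receptor Agtr1a was at 0.32, 0.77, 0.40 and -0.27 in 1K1C and at 0.18, -0.32, -0.51 and -0.26 in 2K1C, a difference of 0.53 ± 0.24. The second type 1 receptor gene, Agtr1b, differed by -0.48 ± 0.55, with 2K1C replicate 4 at -4.57 and the other 2K1C arrays at -2.57 to -2.16. Mas1, the receptor of angiotensin 1-7, differed by -1.13 ± 0.87 and was well above background on 3 arrays of each group. Agtrap, Lnpep and the prorenin receptor Atp6ap2 differed by 0.03 ± 0.15, 0.07 ± 0.18 and -0.07 ± 0.22, and each of these 3 changed sign under at least 1 other setting.

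Of 14 measured genes of mineralocorticoid action and sodium handling, 2 had a higher mean in 1K1C and 12 a lower one, with a median difference of -0.38. Hsd11b2, the enzyme that protects the mineralocorticoid receptor from glucocorticoids, stood apart from the rest. Hsd11b2 was at -1.58, -0.62, -0.98 and -1.67 in 1K1C and at -2.59, -2.82, -2.32 and -2.68 in 2K1C, a difference of 1.39 ± 0.36 (limma adjusted p = 0.0728). It was the only gene of the 14 whose groups did not overlap, against 7.40% of all genes higher and 2.36% lower. It was also the only call of the list without 1K1C replicate 4 (limma adjusted p = 0.0228), against 10.2% higher and 1.42% lower. In both counts 1 gene of 14 was not above the share over all genes. Hsd11b1, which regenerates active glucocorticoid, was at 0.95, 1.45, 0.49 and -0.18 against -0.92, -0.58, -0.59 and -0.95, a difference of 1.43 ± 0.33. Both enzymes of glucocorticoid conversion were therefore at a higher level on every 1K1C array than on any 2K1C array.

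The mineralocorticoid receptor Nr3c2 was at -2.29, -2.53, -2.04 and -1.66 in 1K1C and at -0.87, -1.76, -1.49 and -2.49 in 2K1C, a difference of -0.47 ± 0.29 with overlapping groups. Its target kinase Sgk1 differed by -0.43 ± 0.26 and the ubiquitin ligase Nedd4l by -0.24 ± 0.36. Atp1b1, a beta subunit of the sodium pump, differed by -0.93 ± 0.67, and the pump regulators Fxyd1 and Fxyd5 by -0.40 ± 0.37 and -0.90 ± 0.41. Atp1b1 was split within 1K1C, at -0.75 and -0.69 on replicates 1 and 2 and at 1.31 and 1.21 on replicates 3 and 4. The sodium channel subunit Scnn1b differed by -0.35 ± 0.25, and the exchangers and cotransporters Slc8a1, Slc12a2 and Slc12a4 by -0.50 ± 0.36, -0.26 ± 0.23 and -0.02 ± 0.20. Slc12a4 changed sign with the scaling.

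**Figure D3:**
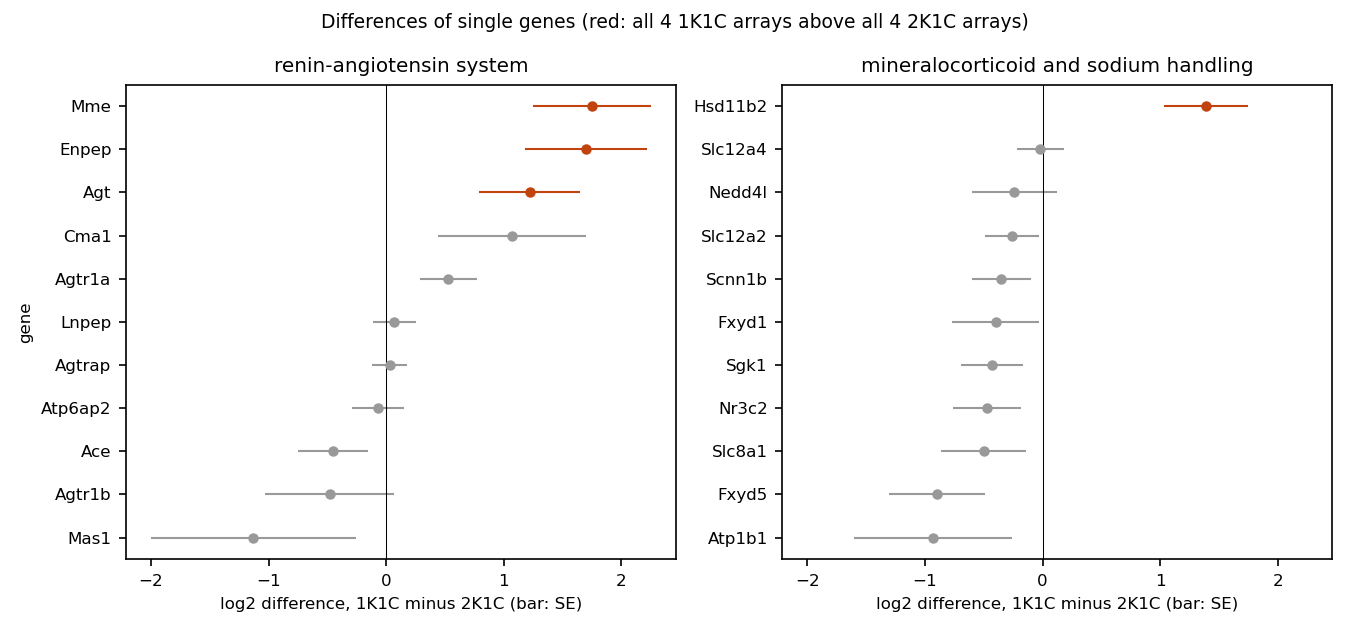
Log2 difference, 1K1C minus 2K1C, with its standard error from limma (4 against 4 arrays), for 11 of the 13 measured renin-angiotensin genes and 11 of the 14 measured genes of mineralocorticoid action and sodium handling. Genes in red have all 1K1C arrays above all 2K1C arrays, and these are Mme, Enpep and Agt on the left and Hsd11b2 on the right.

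Fat cell genes formed the gene list with the largest positive median. All 15 measured white adipocyte genes had a higher mean in 1K1C, with a median difference of 1.39, and in 13 of them the groups did not overlap, against 7.40% of all genes. Adipoq, which encodes adiponectin and was named after its values were seen, was at 7.39, 7.66, 6.73 and 6.24 in 1K1C and at 5.04, 5.81, 5.99 and 5.77 in 2K1C, a difference of 1.36 ± 0.40. Pparg, the master regulator of adipocyte formation, was at 4.95, 5.14, 4.19 and 3.61 against 1.99, 2.94, 3.06 and 2.80, a difference of 1.77 ± 0.46. Cidec, a lipid droplet protein, was at 2.78, 3.65, 2.43 and 1.92 against -0.01, 0.99, 1.68 and 0.71, a difference of 1.85 ± 0.53. The mean of the list was 4.46, 4.70, 3.70 and 3.36 on the 1K1C arrays, 2.26, 2.82, 3.08 and 2.71 on the 2K1C arrays and 2.68 to 4.21 on the untreated arrays. Without 1K1C replicate 4, 10 of the 15 passed in limma, against 10.2% of all genes. Without 2K1C replicate 3, 2 passed, against 1.59%. Both arrays were picked from these data, so these counts are no independent evidence of a difference. Adrb3, the adrenergic receptor of adipocytes, was at 4.47, 5.05, 3.35 and 3.24 against 1.84, 2.56, 2.80 and 2.27, a difference of 1.66 ± 0.53.

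The brown fat genes Ucp1 and Cox8b followed single arrays. Ucp1, the uncoupling protein of brown fat, was at 3.09 on 1K1C replicate 3, at -3.50 to -2.68 on the other 1K1C arrays and at -7.07 to -2.99 in 2K1C, and Cox8b was at 1.60 on that array and at -3.67 to -3.00 on the others of its group. On untreated replicate 1, Ucp1 was at 6.43 and Cox8b at 4.90, and on the other untreated arrays they were at -7.68 to -4.39 and -5.38 to -4.00. All 6 measured brown adipocyte genes had a higher mean in 1K1C, and in 1 the groups did not overlap, against 7.40% of all genes.

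Genes of the mitochondrial respiratory chain were higher in 1K1C as a group. All 16 measured genes had a positive difference, from 0.33 to 1.08, with a median of 0.84, and in 8 the groups did not overlap, against 7.40% of all genes. Cycs, which encodes cytochrome c, was at 5.10, 5.06, 4.75 and 4.23 in 1K1C and at 3.37, 3.70, 4.12 and 3.63 in 2K1C, a difference of 1.08 ± 0.24, and a second probe gave 1.00. Atp5f1b, the catalytic subunit of ATP synthase, was at 3.16, 3.54, 3.20 and 2.61 against 2.07, 2.12, 2.73 and 1.54, a difference of 1.01 ± 0.28. Without 1K1C replicate 4, 15 of the 16 genes passed in limma, against 10.2% of all genes. Without 2K1C replicate 3, 4 passed, against 1.59%. Leaving out either array tends to widen the differences, so these counts are no independent evidence of a difference. The list mean was 4.76, 4.87, 4.40 and 3.92 in 1K1C and 3.49, 3.79, 3.86 and 3.60 in 2K1C. Within each group the 4 arrays stood in the same order by this mean as by the white adipocyte mean, and the part of fat content in the difference was not tested. Hspd1, a chaperone of the mitochondrial matrix, was at 4.91, 5.14, 4.49 and 4.13 against 3.34, 3.55, 3.89 and 3.54, a difference of 1.09 ± 0.24.

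Of 18 measured genes of fatty acid oxidation, 14 had a higher mean in 1K1C and 4 a lower one, with a median difference of 0.92. The groups did not overlap in 8 of the higher genes and in 2 of the lower ones, against 7.40% and 2.36% of all genes. The list mean was 1.69, 1.86, 1.42 and 1.11 in 1K1C and 0.66, 0.86, 1.20 and 0.85 in 2K1C, again in the array order of the white adipocyte mean within each group, and the part of fat content was not tested. Cpt1b, the carnitine palmitoyltransferase of muscle and fat, was at 2.01, 2.00, 1.77 and 1.07 in 1K1C and at -0.41, 0.14, 0.72 and 0.41 in 2K1C, a difference of 1.50 ± 0.47. Ucp3 was at 1.05, 1.58, 0.33 and 0.12 against -1.45, -0.83, -0.05 and -0.76, a difference of 1.54 ± 0.44. The opposite direction was seen in Cpt1a, the isoform of the same step in liver and many other tissues, at -2.15, -2.19, -1.80 and -1.33 against -0.72, -0.87, -0.85 and -1.01, a difference of -1.01 ± 0.26. It was picked out after its values were seen. Without 1K1C replicate 4 it was 1 of the 2 lower calls of this list in limma, against 1.42% of all genes. Beside them were 11 higher calls, against 10.2%. As that array was picked from these data, these calls are no independent evidence of a difference.

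Contractile smooth muscle genes pointed the other way. All 17 measured genes had a lower mean in 1K1C, with a median difference of -1.39, from -2.04 to -0.15, but in 0 of the 17 did the groups fail to overlap, against 2.36% of all genes. Acta2, smooth muscle alpha-actin, was at 3.04, 0.73, 3.68 and 3.76 in 1K1C and at 5.36, 5.24, 4.04 and 3.41 in 2K1C, a difference of -1.71 ± 0.61 (limma adjusted p = 0.121). Lmod1, which nucleates actin filaments in smooth muscle, was at -1.40, -3.97, -0.32 and -0.12 against 1.37, 0.62, 0.44 and -0.98, a difference of -1.82 ± 0.71. Itga8, an integrin of smooth muscle, was at 0.30, -2.35, 2.79 and 3.19 against 3.55, 3.57, 3.25 and 1.73, a difference of -2.04 ± 1.03. The list mean was 1.93, 0.05, 2.97 and 3.01 on the 1K1C arrays, 3.77, 3.72, 3.48 and 2.40 on the 2K1C arrays and 2.52 to 3.02 on the untreated arrays. 1K1C replicate 2 was thus lowest by far, and it was also the array with the highest white adipocyte mean. No member passed without 1K1C replicate 4 or without 2K1C replicate 3.

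**Figure D4:**
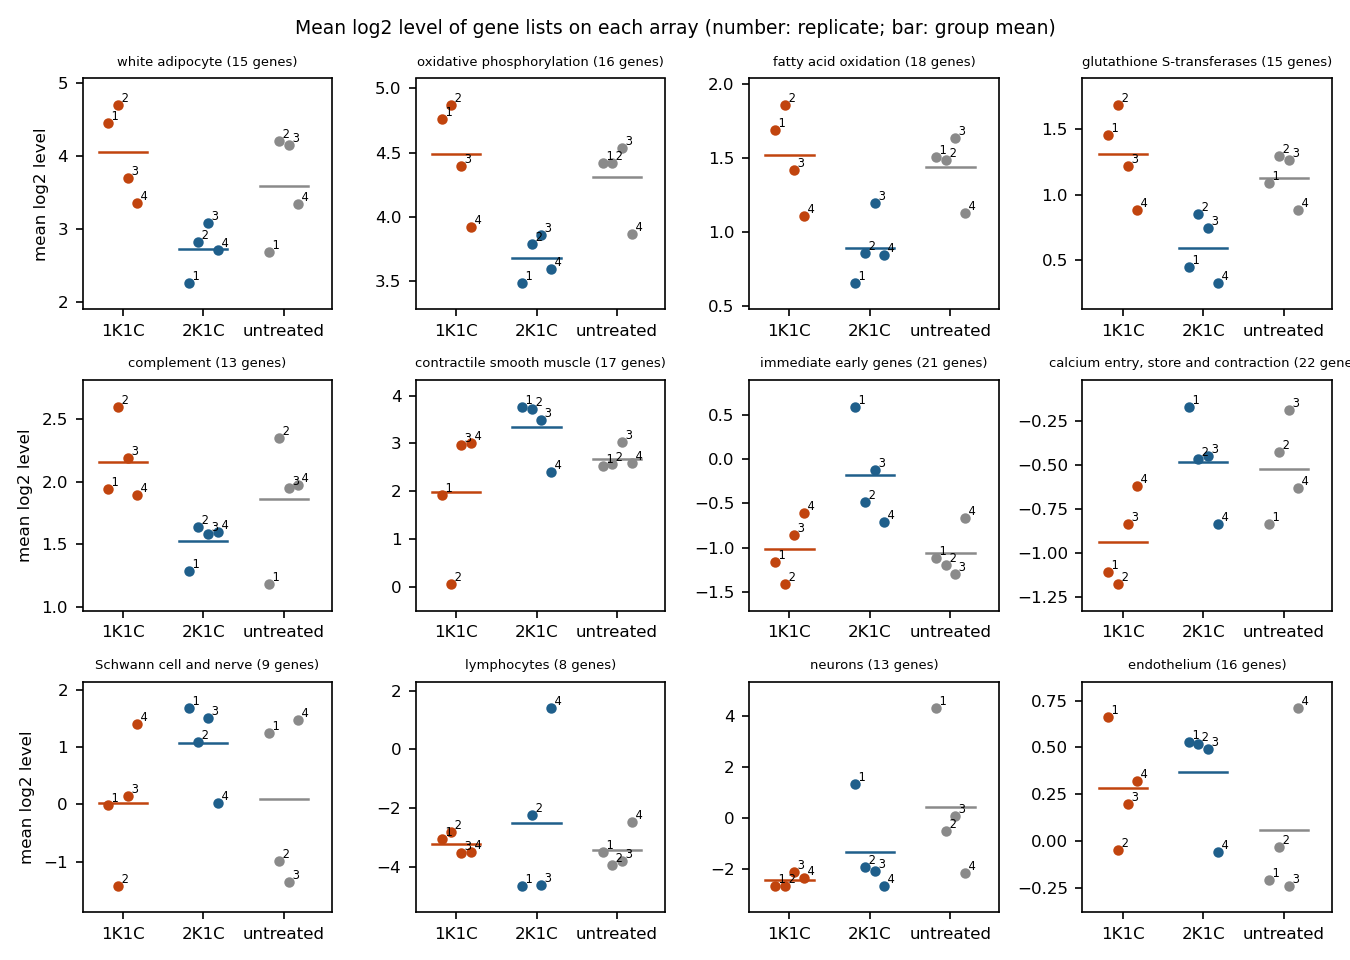
Mean log2 level of 12 gene lists on each of the 4 1K1C, 4 2K1C and 4 untreated arrays, with replicate numbers and a bar at each group mean. The white adipocyte means are 3.36 to 4.70 in 1K1C and 2.26 to 3.08 in 2K1C, and the contractile smooth muscle mean is lowest on 1K1C replicate 2, at 0.05.

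Ion channel and calcium genes of the artery wall were lower in most cases. Of 22 measured genes of calcium entry, stores and contraction, 17 had a lower mean in 1K1C, with a median difference of -0.48. Cacna1h, a T-type calcium channel, was at -1.17, -2.75, -1.25 and -0.32 in 1K1C and at 1.46, -0.02, 0.11 and -0.92 in 2K1C, a difference of -1.53 ± 0.54. Cacnb2, a beta subunit of L-type channels, was not well above background on any 1K1C array and was so on 3 of the 2K1C arrays. Its mean was at least 1.71-fold higher in 2K1C, with a fitted difference of -1.38 ± 0.53. The groups overlapped, with 2K1C replicate 4 at -6.44 and the 1K1C arrays at -7.49 to -5.54. Of 12 potassium channel genes 9 had a lower mean in 1K1C, and the voltage-gated channels Kcna5 and Kcnq1 differed by -1.77 ± 0.91 and -1.41 ± 0.72. In the nitric oxide, cGMP and natriuretic peptide list, 10 of 12 genes had a lower mean in 1K1C. Pde5a, the phosphodiesterase that degrades cGMP, was at -2.28, -3.58, -1.62 and -0.95 against -0.39, -0.75, -0.64 and -1.75, a difference of -1.22 ± 0.51. Npr3, the clearance receptor of natriuretic peptides, went the other way with 1.03 ± 0.52, and the groups overlapped in both.

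Single matrix genes varied widely within 1K1C. Eln, which encodes elastin, was at 4.83, 2.25, 6.48 and 6.49 in 1K1C and at 7.18, 7.09, 6.69 and 5.55 in 2K1C, a difference of -1.61 ± 0.85. Emilin1, a glycoprotein of elastic fibres, was at -1.95 to -0.33 on the 1K1C arrays and at 1.05, 0.39, -0.13 and -0.10 in 2K1C, a difference of -1.27 ± 0.42 without overlap. Spp1, which encodes osteopontin, ran from -5.86 to 1.45 in 1K1C and from -0.64 to 1.53 in 2K1C. Ccn2, a matricellular growth factor target of TGF-beta, differed by -1.61 ± 0.66, Col18a1 by -1.08 ± 0.46 and Col8a1 by -1.44 ± 0.80. In the list of elastic fibre genes, 9 of 14 had a lower mean in 1K1C, with a median of -0.18. All 1K1C arrays lay above all 2K1C arrays in 4, Mfap5 among them with 0.90 ± 0.20, and below in 1. Among all genes the shares were 7.40% and 2.36%. Of 16 collagen chains, 9 had a lower mean in 1K1C. In 0 of them did the groups fail to overlap, against the same shares of all genes. Of 13 TGF-beta signalling genes 11 had a lower mean, with Ltbp1 at -0.96 ± 0.49 and Inhba at -1.07 ± 0.67.

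Immediate early genes, which are transcribed within minutes of a stimulus, were lower in 1K1C in 17 of 21 measured cases, with a median difference of -0.85. In 4 of these, Ier2, Btg2, Nr4a3 and Klf2, the groups did not overlap, against 2.36% of all genes. Without 1K1C replicate 4, 6 members passed in limma, all lower in 1K1C, against 1.42% of all genes. Such calls are no independent evidence, as that array was picked from these data. Fos was at -4.43, -4.30, -3.12 and -3.16 in 1K1C and at 1.13, -3.71, -0.03 and -4.18 in 2K1C, a difference of -2.06 ± 0.92. Egr1 was at -1.71, -1.80, -1.26 and -0.39 against 1.72, -0.92, 0.44 and -1.07, a difference of -1.33 ± 0.52. In Fos and Egr1 the higher 2K1C mean came from replicates 1 and 3, while replicates 2 and 4 lay within the range of the 1K1C arrays. Nr4a3, an orphan nuclear receptor, was at -5.78, -6.76, -4.42 and -3.82 against -3.40, -3.31, -3.39 and -3.44, a difference of -1.81 ± 0.69, and it was well above background on 2 of 4 1K1C arrays. Btg2, an antiproliferative early gene, was at 0.33, 0.67, 0.63 and 0.76 against 2.17, 1.17, 1.29 and 1.83, a difference of -1.02 ± 0.27 (limma adjusted p = 0.0733). The list mean was -1.16, -1.41, -0.85 and -0.61 in 1K1C and 0.59, -0.48, -0.12 and -0.71 in 2K1C, with 2K1C replicate 1 highest. These genes also respond to the handling of tissue, and that part was not tested.

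The promoters of 5 of these genes show the elements through which early genes are classically switched on. The 250 bases before the start of the gene are given 5′ to 3′ from RefSeq (GRCr8), with matches in capitals. The CArG box (searched as CCWWWWWWGG, W being A or T) binds serum response factor. The cAMP response element (TGACGTCA) binds CREB and related factors. Both were searched on both strands, as were an AP-1 site (TGANTCA), the binding site of NRF1 and an ETS site (CCGGAAGT), which 0 of the 14 matched early genes held. An AP-1 site therefore overlaps none of the matches shown. The motifs and the genes shown were chosen after the gene lists had been seen.
Egr1, chr18:26736828-26737077, + strand: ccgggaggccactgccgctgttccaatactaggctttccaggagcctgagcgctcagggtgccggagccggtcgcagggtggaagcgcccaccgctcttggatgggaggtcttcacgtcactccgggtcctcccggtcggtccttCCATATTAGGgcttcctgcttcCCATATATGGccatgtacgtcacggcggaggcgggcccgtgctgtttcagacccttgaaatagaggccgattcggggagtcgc
Egr2, chr20:21054442-21054691, - strand: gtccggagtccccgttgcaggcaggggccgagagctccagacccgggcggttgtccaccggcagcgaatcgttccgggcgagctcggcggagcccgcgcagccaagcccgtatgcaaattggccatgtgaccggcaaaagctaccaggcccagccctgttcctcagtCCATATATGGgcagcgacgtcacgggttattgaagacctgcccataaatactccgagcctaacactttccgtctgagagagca
Zfp36, chr1:92799109-92799358, - strand: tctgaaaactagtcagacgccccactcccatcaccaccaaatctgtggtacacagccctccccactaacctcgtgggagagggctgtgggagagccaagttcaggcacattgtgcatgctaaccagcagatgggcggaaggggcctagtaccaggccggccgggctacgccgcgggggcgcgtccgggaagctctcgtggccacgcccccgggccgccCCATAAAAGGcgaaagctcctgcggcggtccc
Ier2, chr19:40399123-40399372, + strand: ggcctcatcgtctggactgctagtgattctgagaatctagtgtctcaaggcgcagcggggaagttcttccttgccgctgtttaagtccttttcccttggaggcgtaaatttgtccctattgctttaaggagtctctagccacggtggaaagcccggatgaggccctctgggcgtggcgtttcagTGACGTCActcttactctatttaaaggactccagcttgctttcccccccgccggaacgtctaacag
Btg2, chr13:48087691-48087940, - strand: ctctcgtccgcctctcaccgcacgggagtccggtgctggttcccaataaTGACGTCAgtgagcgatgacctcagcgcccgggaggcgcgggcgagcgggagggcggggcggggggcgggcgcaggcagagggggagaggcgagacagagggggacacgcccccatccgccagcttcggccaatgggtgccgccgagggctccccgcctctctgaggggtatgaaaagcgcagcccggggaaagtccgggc
Egr1 held 2 CArG boxes, which began 105 and 83 bases before the start, and Egr2 held 1 at 83 bases. Zfp36, which encodes an RNA-binding protein that shortens the life of cytokine mRNAs, held 1 at 32 bases. Ier2 and Btg2 each held 1 cAMP response element, at 66 and 201 bases. Of the 14 members with a promoter in the RefSeq table, 4 held a CArG box (28.6%) and 4 a cAMP response element (28.6%). Among promoters of all tested genes that matched the table, 9704, the shares were 1.13% and 2.82%. Of the 12 contractile smooth muscle promoters in the table, 0 held either motif in this window. CArG boxes with another base in the core and boxes outside the window were not searched for, so such boxes may be present. Egr2 was at -6.03, -6.34, -5.15 and -4.09 in 1K1C and at -3.30, -4.55, -3.99 and -3.65 in 2K1C, a difference of -1.53 ± 0.53. Zfp36 was at -5.19, -5.41, -5.41 and -5.71 against -3.14, -4.91, -5.26 and -4.49, a difference of -0.98 ± 0.34. Both overlapped between the groups, and both were well above background on all 4 2K1C arrays but on few of 1K1C, 2 for Egr2 and 1 for Zfp36, so the 1K1C levels are imprecise.

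Detoxifying and antioxidant genes were mostly higher in 1K1C. Of 15 measured glutathione S-transferase genes, 12 had a higher mean in 1K1C, with a median difference of 0.69, and in 8 the groups did not overlap, against 7.40% of all genes. Mgst1, a microsomal transferase, was at 5.53, 6.01, 4.96 and 4.12 in 1K1C and at 2.49, 3.25, 3.92 and 3.26 in 2K1C, a difference of 1.92 ± 0.50, or 3.80-fold. Mgst2 was at 2.34, 2.59, 1.63 and 0.84 against -0.33, 0.08, 0.44 and 0.72, a difference of 1.62 ± 0.45. Without 1K1C replicate 4, 9 of the 15 passed in limma, against 10.2% of all genes. Without 2K1C replicate 3, 1 passed, against 1.59%. These counts, again, are no independent evidence of a difference. The list mean was 1.45, 1.68, 1.22 and 0.88 in 1K1C and 0.45, 0.85, 0.75 and 0.33 in 2K1C. Only in 1K1C was this the array order of the white adipocyte mean, and the part of fat content was not tested. Of 16 redox genes 12 had a higher mean, with a median of 0.34, and in 3 the groups did not overlap, against 7.40% of all genes. Among these 3 were Cat, which encodes catalase (1.42 ± 0.44), and Sod3, the extracellular superoxide dismutase (1.05 ± 0.29). Paralogs of the transferase family share sequence, and cross-hybridisation between their probes was not tested.

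Complement genes were higher in 10 of 13 measured cases, with a median difference of 0.72, and in 6 the groups did not overlap, against 7.40% of all genes. Of these 6, Cfd is also in the white adipocyte list. C6, of the membrane attack complex, was at 3.51, 4.29, 3.24 and 2.59 in 1K1C and at 1.33, 1.53, 2.47 and 1.66 in 2K1C, a difference of 1.66 ± 0.57. C2, of the classical pathway, was at 2.63, 3.41, 2.11 and 1.56 against -0.05, 1.13, 1.20 and 1.18, a difference of 1.57 ± 0.56. Of 15 macrophage genes 12 had a higher mean, with a median of 0.27 and differences from -0.21 to 1.81. In 2 of them the groups did not overlap, against 7.40% of all genes. The largest difference was that of Cd163, the haemoglobin scavenger receptor. It was at -0.99, 0.55, -0.24 and -1.05 against -3.01, -2.16, -2.03 and -1.78, a difference of 1.81 ± 0.51. Of 15 interferon response genes 12 had a higher mean, with a median of 0.33 and overlap in all 15. In the prostanoid and epoxide list the median was 0.03, yet Ephx2, the soluble epoxide hydrolase, was at -0.37, 0.17, -0.52 and -1.10 against -2.95, -1.57, -1.13 and -2.40, a difference of 1.56 ± 0.45. Alox5, the 5-lipoxygenase of leukotriene synthesis, was at -2.38, -1.22, -2.31 and -2.72 against -4.44, -3.18, -3.89 and -3.42, a difference of 1.58 ± 0.45.

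Glycolytic and growth factor genes held single members that stood apart. Of 16 genes of hypoxia and glycolysis 10 had a higher mean, with a median of 0.32, and 5 did not overlap, against 7.40% of all genes. Pdk1, which restrains pyruvate oxidation, was at 1.12, 1.24, 0.47 and -0.39 in 1K1C and at -1.71, -1.01, -0.53 and -1.16 in 2K1C, a difference of 1.71 ± 0.45. Hk2, a hexokinase, was at -0.25, -0.96, -1.88 and -2.18 against -3.52, -2.98, -2.69 and -2.77, a difference of 1.67 ± 0.48. Vegfa, named after its values were seen, was at 3.22, 3.16, 2.51 and 2.53 against 1.63, 1.96, 2.12 and 1.95, a difference of 0.94 ± 0.22 (limma adjusted p = 0.0728). Vegfb and Igf1 differed by 1.30 ± 0.35 and 1.16 ± 0.36, without overlap. Vegfa, Vegfb and Igf1 are in the list of VEGF, PDGF, FGF and Notch genes. Of its 21 members 12 had a lower mean, and in 4 all 1K1C arrays lay above all 2K1C arrays, against 7.40% of all genes. The median of that list was -0.07, and it became 0.00 with each array scaled to its median.

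Cholesterol genes did not move as a block, with 10 of 17 higher in 1K1C and a median of 0.11. Insig1, which retains the sterol sensor in the endoplasmic reticulum, was at 3.86, 4.11, 3.20 and 2.67 in 1K1C and at 1.15, 1.60, 2.16 and 1.06 in 2K1C, a difference of 1.97 ± 0.53. Dhcr7, the last enzyme of the pathway, was at 2.48, 2.70, 1.37 and 0.62 against 0.23, 0.61, 0.56 and 0.30, a difference of 1.37 ± 0.40. Srebf2, the transcription factor of the pathway and picked out after its values were seen, was at 0.44, 0.19, 0.23 and 0.76 against 1.76, 1.07, 0.78 and 1.50, a difference of -0.87 ± 0.23. Among chaperones, the heat shock gene Hspa1b was at -1.59, -2.56, 0.25 and 0.22 against 1.42, 1.57, 1.60 and -0.28, 3.99-fold lower in 1K1C (SE of 0.86 on the log2 scale), in a list whose median was 0.09.

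**Figure D5:**
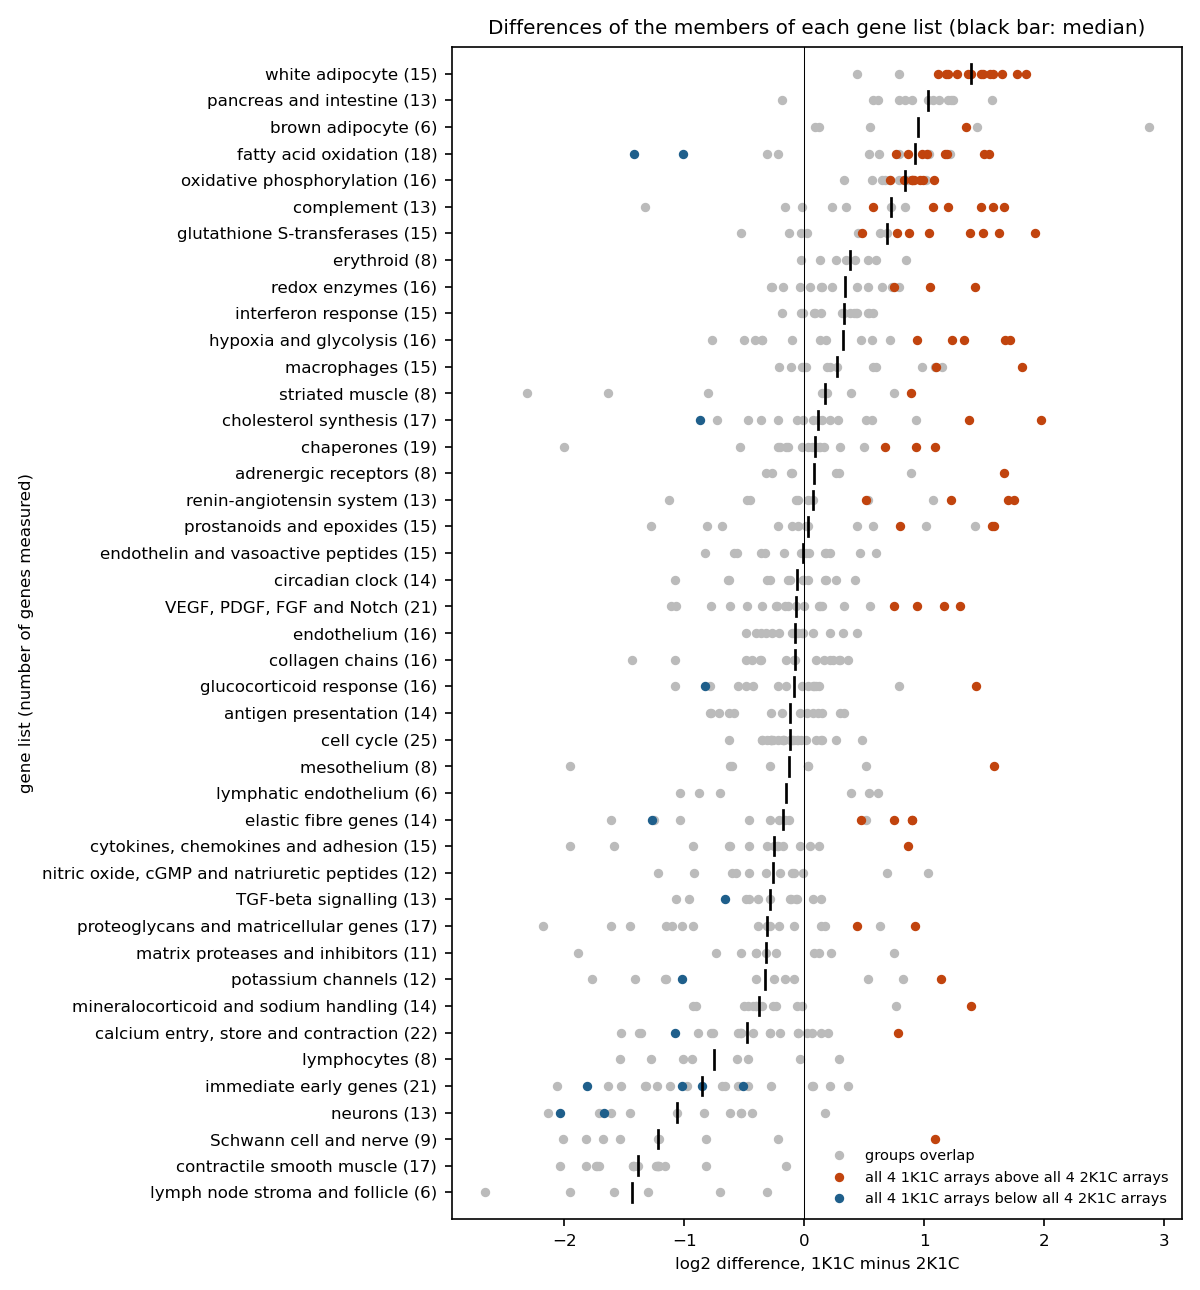
Log2 difference, 1K1C minus 2K1C, of every measured member of 43 gene lists (1 point a gene, the number measured in brackets, a black bar at the median). Red points are genes with all 1K1C arrays above all 2K1C arrays, blue points those with all below. The white adipocyte list has 13 red points of 15, and the contractile smooth muscle list lies wholly below 0 with no coloured point.

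Markers of other cells in the dissected tissue varied between single arrays. Of 16 endothelial genes 4 had a higher mean in 1K1C and 12 a lower one, with a median of -0.08 and overlap in all 16. Schwann cell and nerve genes were lower in 1K1C in 8 of 9 cases, with list means of -0.01, -1.42, 0.14 and 1.40 in 1K1C and 1.68, 1.09, 1.51 and 0.02 in 2K1C. Of 13 neuron genes 12 had a lower mean in 1K1C, and the list mean was 1.31 on 2K1C replicate 1, -2.67 to -1.95 on the other 2K1C arrays and -2.67 to -2.12 in 1K1C. Slc6a2, the noradrenaline transporter of sympathetic neurons, was at 2.99 on 2K1C replicate 1, at -3.07 to -2.75 on the other 2K1C arrays and at -3.91 to -3.10 in 1K1C.

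Lymphoid genes were high on 2K1C replicate 4. The mean of 8 lymphocyte genes was 1.41 on that array, -4.65 to -2.22 on the other 2K1C arrays and -3.52 to -2.81 in 1K1C, and that of 6 lymph node genes was 3.55, against -1.90 to 0.26 and -1.72 to -1.18. Cd74, the invariant chain of MHC class II, was at 5.96 on that array, against at most 3.06 on the other 7 arrays. Without 2K1C replicate 4 the difference of Cd74 turned from -0.78 ± 0.83 to 0.24 ± 0.64. Genes of exocrine pancreas and intestine had a higher mean in 1K1C in 12 of 13 cases, with list means of -3.21 to -1.13 in 1K1C and -4.38 to -1.68 in 2K1C, and in 0 of them did the groups fail to overlap. Erythroid genes were higher in 7 of 8 cases, with a median of 0.38 and overlap in all 8. The part of these tissues in the differences above was not tested.

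The remaining lists are given by their 2 members with the largest difference. Among lymphoid and lymph node genes, Cd79b of B cells, the chemokines Cxcl13 and Ccl19, the class II gene RT1-Bb and the endothelial mucin Glycam1 differed by -1.28 ± 1.77, -1.59 ± 1.55, -1.95 ± 0.96, -0.79 ± 0.77 and -2.66 ± 1.84, and each was highest on 2K1C replicate 4. Sox10, the Schwann cell factor, differed by -1.82 ± 0.79 and the neurofilament gene Nefm, well above background on 1 of 4 1K1C and 3 of 4 2K1C arrays, by -2.14 ± 1.30. Of the mesothelial genes, Wt1 differed by 1.58 ± 0.67 without overlap and Krt18 by -1.95 ± 0.85. The pancreatic enzymes Pnlip and Cela3b differed by 1.56 ± 1.36 and 1.24 ± 1.16, and the striated muscle genes Ckm and Acta1 by -2.31 ± 0.96 and -1.64 ± 0.72, with Ckm well above background on 2 of 4 1K1C arrays. The transferrin receptor Tfrc and the haemoglobin chaperone Ahsp, of the erythroid list, differed by 0.85 ± 0.40 and 0.60 ± 0.48. None of these passed in limma with all arrays.

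The endothelial genes Esam and Emcn differed by -0.49 ± 0.33 and 0.44 ± 0.25, and the lymphatic genes Reln and Flt4 by -1.04 ± 0.57 and -0.88 ± 0.44. Npy1r, the receptor through which neuropeptide Y constricts arteries, differed by -0.83 ± 0.57, the peptide gene Apln by 0.60 ± 0.36 and the adrenergic receptor Adra2c by 0.89 ± 0.54. The macrophage mannose receptor Mrc1 differed by 1.15 ± 0.51, the interferon genes Oas1a and Ifi27 by 0.57 ± 0.32 and 0.54 ± 0.21, and the aggrecanase Adamts5 by 0.75 ± 0.43. Cell cycle genes had a lower mean in 19 of 25 cases with a median of -0.12, and Rrm2 and Ccne1 differed by -0.63 ± 0.45 and 0.48 ± 0.37. The clock genes Per1 and Nr1d2 differed by -1.08 ± 0.63 and -0.64 ± 0.32, in a list whose median, -0.06, changed sign with the scaling. The groups overlapped in each gene of this paragraph.

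Each operation was also set beside the untreated arrays, which share slide 2 with 1K1C and are the control of both, so these values are not independent of each other. Against untreated WKY, limma called 0 genes in 1K1C (0%), with 1490 at an unadjusted p under 0.05, and 2 genes in 2K1C (0.0122%), with 3611. The called genes were Ier2 and an unnamed transcript, both higher in 2K1C. Ier2 was at 0.81, 1.16, 1.03 and 1.48 in untreated arteries, a difference of 1.34 for 2K1C (limma adjusted p = 0.0318) and of 0.49 for 1K1C (limma adjusted p = 0.472). As single arrays were left out, the number of calls ran from 0 to 204 for 1K1C and from 0 to 870 for 2K1C, with both highest counts without untreated replicate 4; without 2K1C replicate 3 there were 425 for 2K1C. Of the 1213 non-overlapping genes higher in 1K1C than in 2K1C, the untreated mean was nearer to 1K1C in 1013 and nearer to 2K1C in 200. Of the 387 lower genes, the untreated mean was nearer to 1K1C in 286 and to 2K1C in 101. The 2K1C arrays lay on slide 1, apart from both other groups, so slide and operation cannot be told apart in this nearness. Pparg had an untreated mean of 4.13, near the 1K1C mean of 4.47 and above the 2K1C mean of 2.70. Spink5 had an untreated mean of -2.32, between -1.02 in 1K1C and -3.03 in 2K1C. Enpep, at 0.16 in untreated arteries, was nearer to 2K1C (-0.31) than to 1K1C (1.39). Hsd11b2 was at -1.75 in untreated arteries, nearer to 1K1C (-1.21) than to 2K1C (-2.60).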

How the data were processed

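RNA of 20 mesenteric artery samples was hybridised to 1-colour Agilent arrays with 60-base probes. The deposited scanner files hold a processed intensity per spot, background-subtracted by the scanner software (per the submitters' processing notes, version 10.7.3.1 of Agilent Feature Extraction); the deposited value table holds the same signals. Here log2 of that intensity was taken, the 75th percentile of the non-control spots of each array was subtracted, control and outlier spots were left out, and spots of a probe were averaged. A probe was kept if 1 or more of the 5 groups had it well above background on its 4 arrays (18873 probes), and a gene is the brightest of its probes (16387 genes). Symbols were updated through RefSeq by accession for 60.4% of probes. limma 3.58.1 in R 4.3.3 (lmFit, eBayes) was fitted over 5 groups of 4 arrays, two-sided, with Benjamini-Hochberg adjustment at 0.05, and was tested on simulated data. The unadjusted threshold was 0.05.

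The compared samples, the 43 gene lists and the tests were chosen with earlier results of these data known. Named genes are the 12 largest differences per direction among called genes with non-overlapping groups. As no gene was called, they were filled by the smallest unadjusted p among genes with a symbol, non-overlapping groups and the brighter group well above background. The 2 largest differences of each list and all members of the renin-angiotensin and sodium lists are also named, except some genes that are not reported here. Acta2, Egr1, Egr2, Zfp36, Btg2, Cpt1a, Adipoq, Vegfa, Slc32a1, Srebf2, Mfap5 and Klf2 were added after their values were seen. "At least" folds set the brighter group's mean against, per array, the dim probe's own signal or, if higher, the lowest signal of any probe that passed the background test. Alternatives were other scalings, normexp with an offset of 50, the deposited values without scaling, other probe filters and probe choices, the 8 arrays alone, a replicate block and leaving out single arrays. A rule counting a probe as well above background on an array by a majority or a tie of its spots, not by all of them, was an alternative chosen after seeing the data, as was leaving out untreated arrays. Slide could not be fitted as a block, since it holds no estimate of this contrast. The p-values set each difference against the spread between arrays within the 5 groups, and they do not separate operation from slide.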

Additional observations from a re-analysis of the deposited data

Results flagged for a closer look

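In 17 of 352 sets of 4 values, a single array stood far from the other 3 of its group by Dixon's 95% criterion, and chance marks about 1 in 20 such sets. 2K1C replicate 4 accounted for 6 of them. It was lowest for Ltbp1 at -0.91, Agtr1b at -4.57, Hspa1b at -0.28, Ckm at -4.51 and the mean of the endothelial genes at -0.06, and highest for Tfrc at -0.72. On 2K1C replicate 1, Enpep was lowest at -0.64, C2 was lowest at -0.05 and Slc6a2 was highest at 2.99. Cat was highest on 2K1C replicate 3, at -0.84. On 1K1C replicate 3, Ucp1 was highest at 3.09, Cox8b at 1.60 and the mean of the endothelin and vasoactive peptide genes at -1.22. On 1K1C replicate 2, Esam was lowest at -0.01 and Scnn1b at -5.26. Krt18 was lowest on 1K1C replicate 1, at -4.31, and Ier5 was highest on 1K1C replicate 4, at 1.50.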

How the results depend on the processing

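The number of calls between 1K1C and 2K1C was 0 in limma under every setting run with all 8 arrays, and 0 to 1901 as single arrays were left out. Genes at an unadjusted p under 0.05 then numbered 2062 to 4566. Non-overlapping genes numbered 1235 to 2667 higher and 438 to 1285 lower; the lower ones numbered 233 with median scaling and 84 in the deposited values. The share higher was 86.1% and 95.5% under those settings, and 56.4% without 2K1C replicate 4. Median scaling moved the median of all genes from 0.02 to 0.09. Against untreated arteries, calls in 1K1C were 2 in the deposited values and 0 to 204 with arrays left out. Those in 2K1C were 8 with quantile normalization, 69 with normexp, 0 in the deposited values and 0 to 870 with arrays left out.

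Of 133 named genes, 8 changed sign under some setting, all uncalled. With median scaling, Atp6ap2 became 0.01 and Slc12a4 0.06, and in the deposited values 0.01 and 0.05. Agtrap became -0.01 with quantile normalization and Atp6ap2 0.05 with normexp. With single arrays left out, Atp6ap2 ran from -0.18 to 0.08, Lnpep from -0.05 to 0.15 and Slc12a4 from -0.28 to 0.11. Cd79b ran from -2.63 to 0.65, Cxcl13 from -2.58 to 0.28, RT1-Bb from -1.30 to 0.21 and Cd74 from -1.38 to 0.24, each with its highest value, and its only positive one, without 2K1C replicate 4. The causes were not tested. Same-numbered arrays did not deviate together (correlations of -0.06, 0.07, 0.25 and -0.34; 1 of 8 arrays correlated best with its own number). A replicate block gave 0 calls and 3587 genes at an unadjusted p under 0.05.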
